A study of Drosophila melanogaster with 12 samples.

Results

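Mondo, bigmax, sug (sugarbabe), cbt (cabut) and daw (dawdle) are 5 sugar-sensing regulators of Drosophila melanogaster, picked by name from the 13759 genes of the deposited table. All but daw were found by their CG number (cbt CG4427, Mondo CG18362, bigmax CG3350, sug CG3850) and daw was found by its symbol, and a gene with several transcript rows was represented by the row with the highest mean. All 5 passed the minimum mean of 10 normalized reads, a read count scaled by 1 factor per library. They were followed in poly(A) 3' RNA-seq of fly heads (strain background Canton-S) kept for 18 h on sucrose at 0, 25, 50 or 100 percent, as the labels give it. There were 8 libraries labelled cabut RNAi, with the genotype Tim-gal4, UAS-cbt RNAi, 2 at each concentration. There were 4 control libraries with the genotype +/cbtE1-UAS-cbt RNAi, 1 at each concentration, so both labels carry the RNAi transgene and the label lists cbtE1 for the control alone. The driver Tim-gal4 is known to act in cells that express the clock gene timeless, which are a part of the cells of a head, and a whole head also holds brain, eye, fat body and muscle. In such bulk samples fewer cells of a type and less RNA per cell cannot be told apart.

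Mondo is the fly counterpart of the mammalian sugar sensor ChREBP, and bigmax, the counterpart of Mlx, is the partner with which it binds DNA. In larvae the pair is known to turn on genes of sugar use and fat synthesis, among them sug and cbt, which both encode zinc-finger transcription factors. Cabut is related to mammalian TIEG proteins and acts largely as a repressor, and sugarbabe belongs to the Gli-similar family and is named for its induction by sugar. Dawdle is a secreted activin-like ligand of the TGF-beta family, and in larvae it relays sugar status between tissues.

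The libraries held between 511487 and 1859280 reads over 1 row per gene, and the shallowest was the control at 100 percent sucrose. That library also stood apart in markers of tissues that a head lacks. It held 15 reads of the oocyte gene osk and 3 of the germline gene vas, of which the other 11 libraries held 0 reads. The midgut protease genes alphaTry and Jon65Aiv had 8 and 5 reads in it, against at most 1 and 2 in any other library. Fitted changes of the 5 genes that use this library are therefore given with and without it. Ranges, group means, read ratios, the subtraction of CG3368 and correlations include it. Of the 6 photoreceptor markers all were present, with a summed level of 30787 to 35673 normalized reads across the libraries labelled cabut RNAi and 31704 to 35559 in controls. Among the 5 neuron markers the pan-neuronal gene elav averaged 6.79 normalized reads, under the minimum for testing. The labels do not say whether replicate libraries stem from separate sets of flies, so the p-values measure a spread among libraries that may be technical. Intervals on single libraries are exact Poisson 95 percent intervals and cover counting error alone. Changes are on the log2(value + 1) scale with their standard error (SE), and adjusted p-values are from limma with Benjamini-Hochberg adjustment over 6552 genes, with a threshold of 0.05.

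cbt (transcript CG4427-RB, at 476437 to 479046 of chromosome 2L, build dm3), the gene targeted by the RNAi, was not lower in the libraries labelled cabut RNAi. The 2 libraries labelled cabut RNAi held 102 and 127 normalized reads at 0 percent sucrose, 162 and 126 at 25 percent, 166 and 138 at 50 percent, and 186 and 202 at 100 percent. Controls held 93.5, 139, 128 and 98.5 in the same order. The control lay below both libraries of the other label at 3 concentrations and between them at 25 percent. The ratio of the mean labelled cabut RNAi to the control was 1.22, 1.03, 1.19 and 1.97 from 0 to 100 percent, so the gap was widest at 100 percent, where the control had 44 reads of cbt (interval 71.5 to 132 normalized reads). The log2 change between labels was 0.38 ± 0.13 (SE, n = 8 and 4; limma adjusted p = 0.0539), with 0.19 (limma adjusted p = 0.363) once the control at 100 percent was left out. Across all 25 alternatives the value stayed above 0 (0.19 to 0.50), and in 9 of them it passed the threshold, with limma, edgeR or DESeq2 adjusted p-values of 0.0196 to 0.363. Whether some of these reads came from the transgene could not be seen in the table. The genotypes are therefore called by their labels throughout, and no direction below is a direction of lower cbt RNA.

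With sucrose, cbt held 126 to 202 normalized reads across the 6 libraries labelled cabut RNAi and 98.5 to 139 in the 3 controls, against 102 and 127 and 93.5 without it. Under the cabut RNAi label the groups with and without sucrose overlapped by a single library, that of 126 at 25 percent. The 3 controls with sucrose lay above the single one without it. The lowest of them, at 100 percent, had a counting interval of 71.5 to 132, which overlapped that of 73.3 to 118 at 0 percent. In the libraries labelled cabut RNAi the mean over that at 0 percent was 1.26, 1.33 and 1.69 at 25, 50 and 100 percent. In the single controls the ratios were 1.49, 1.36 and 1.05. Their counting intervals at 25, 50 and 100 percent overlapped (119 to 162, 104 to 155 and 71.5 to 132), so these controls could not be put in order. Over all libraries, of which more carry the cabut RNAi label, the log2 change with sucrose was 0.45 ± 0.14 (limma adjusted p = 0.130). It passed in 1 of 24 alternatives, the fit without the 100 percent control library (0.54, limma adjusted p = 0.0179; range over alternatives 0.0179 to 0.596). The change within the libraries labelled cabut RNAi was 0.50 ± 0.14 (limma adjusted p = 0.117) and within controls 0.36 ± 0.19 (0.429).

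**Figure D1:**
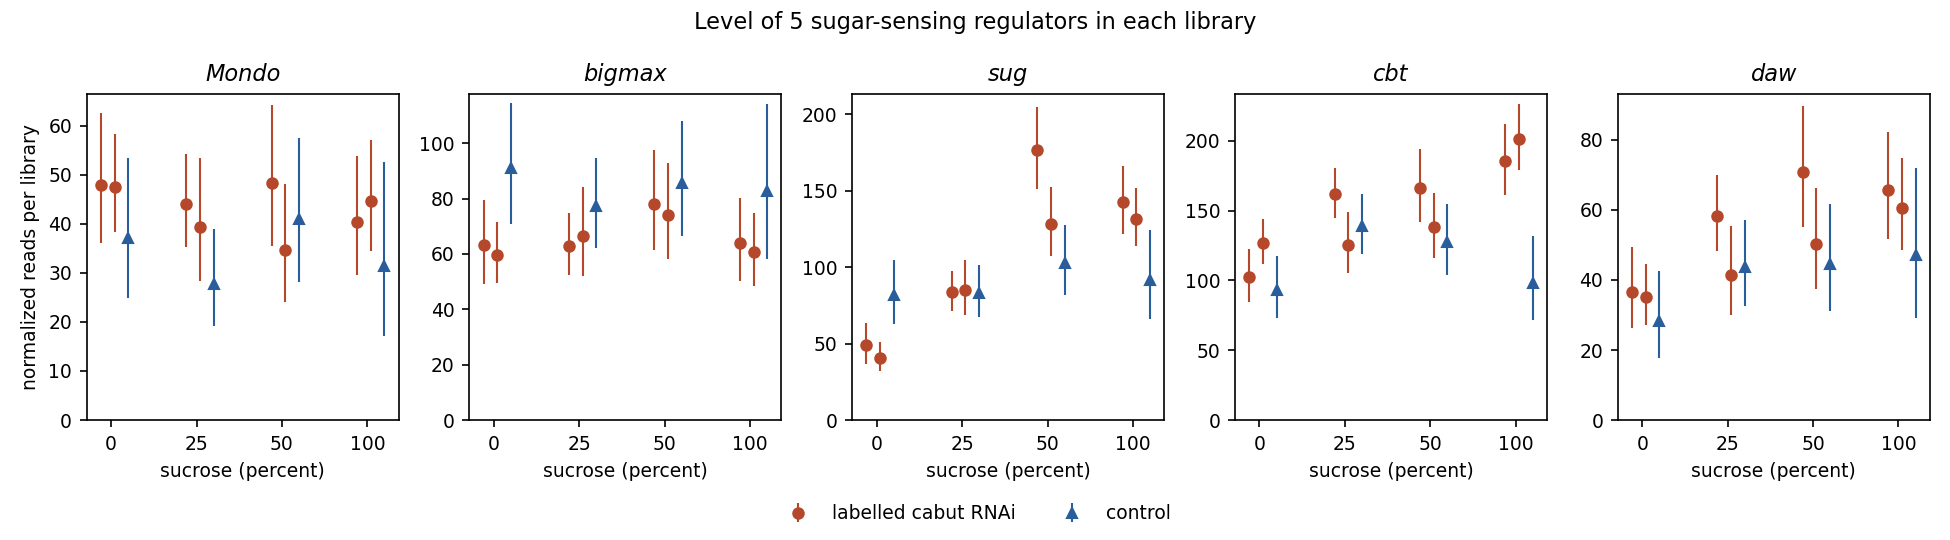
Normalized reads per library (vertical axis, from 0, a separate scale for each gene) of the 5 genes against sucrose in percent, with circles for the 2 libraries labelled cabut RNAi and triangles for the 1 control at each concentration; bars are exact Poisson 95 percent counting intervals. The sug libraries labelled cabut RNAi go from 40.7 and 48.9 without sucrose to 128 and 177 at 50 percent, while the controls stay between 82.0 and 103, and every bigmax control lies above both libraries of the other label.

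Mondo (transcript CG18362-RA, chromosome 2L, 21286078 to 21309988 in build dm3) showed no called difference. Its 5 transcript rows held the same values in every library, so isoforms could not be told apart. The libraries labelled cabut RNAi held 48.0 and 47.4 normalized reads at 0 percent, 43.9 and 39.4 at 25 percent, 48.3 and 34.5 at 50 percent, and 40.3 and 44.6 at 100 percent. The controls held 37.1, 27.7, 40.9 and 31.3. The control was below both libraries of the other label at 3 concentrations and between them at 50 percent, and the pooled ranges of the labels overlapped (34.5 to 48.3 against 27.7 to 40.9). The log2 change between labels was 0.34 ± 0.14 (limma adjusted p = 0.128), with 0.31 (0.281) without the 100 percent control library, and it passed in none of 24 alternatives (values 0.26 to 0.45, limma, edgeR or DESeq2 adjusted p-values of 0.0518 to 0.364). With sucrose the log2 change was -0.19 ± 0.15 (limma adjusted p = 0.744; 95 percent interval -0.51 to 0.14). Mondo had 14 to 92 reads per library. The row of Mondo also overlaps that of Gr39a, a taste receptor gene on the other strand, which was listed at 0.

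bigmax (transcript CG3350-RA, chromosome 3R, 23113087 to 23114217 in build dm3) was lower under the cabut RNAi label. Its libraries held 63.1 and 59.8 normalized reads at 0 percent sucrose, 62.9 and 66.6 at 25 percent, 78.0 and 74.0 at 50 percent, and 63.9 and 60.7 at 100 percent. The controls held 90.9, 77.2, 85.5 and 82.8. The control was above both libraries of the other label at all 4 concentrations, and the pooled ranges overlapped by a single pair of libraries, 78.0 at 50 percent against the control of 77.2 at 25 percent. The group means were 66.1 ± 6.52 (SD, n = 8) and 84.1 ± 5.71 (SD, n = 4). The log2 change was -0.35 ± 0.11 (limma adjusted p = 0.0380), a 1.27-fold difference. Of all genes tested, 15.5 percent were called between labels (6.78 percent higher and 8.71 percent lower), and of the 5 regulators 1 was called, which is near that share. The bigmax call held in 13 of 25 alternatives and in 3 of the 12 fits that left out a library. The value stayed between -0.40 and -0.27, with limma, edgeR or DESeq2 adjusted p-values of 0.0141 to 0.181. It was -0.33 (limma adjusted p = 0.0958) without the 100 percent control library and -0.27 (0.164) without the control at 0 percent. Cell type markers moved with the label too: of the 6 fat body markers 3 were lower (Yp1, Yp2 and Yp3) and 1 higher (Lsp2, a larval serum protein gene, with a log2 change of 1.83 ± 0.30), and 2 of 3 tested neuron markers were lower. Higher were 2 of 4 glia markers, 2 of 3 tested muscle markers, 1 of 2 tested hemocyte markers (Hml) and 1 of 6 photoreceptor markers (ninaC). Their part in the values between labels was not tested. The summed neuron markers ran from 128 to 194 normalized reads under the cabut RNAi label and from 194 to 244 in controls, and the summed glia markers from 1778 to 2183 and from 1711 to 1822.

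The bigmax row shares its last 84 bases with the row of CG3368 (chromosome 3R, 23109498 to 23113170 in build dm3), which the Ensembl annotation of a later build places on the opposite strand, so that the 3' ends of the pair meet. The use of strand in the counting is not given in the sources used here, and 3' reads of both genes may fall in that stretch. CG3368 held 21.1 to 30.8 normalized reads across the libraries labelled cabut RNAi and 26.0 to 43.4 in controls, with a log2 change between labels of -0.42 ± 0.17 (limma adjusted p = 0.110). It thus had the same sign as bigmax. Taking away from bigmax as many normalized reads as CG3368 held in each library left 39.2 ± 5.71 (SD, n = 8) under the cabut RNAi label and 47.2 ± 3.83 (SD, n = 4) for controls. After that subtraction the ranges were 33.3 to 48.4 and 42.1 to 51.2, and they overlapped. Because Mondo and bigmax act as a pair, their reads were also set against each other within each library, which needs no scaling. There were 1.26 to 2.14 reads of bigmax per read of Mondo in the libraries labelled cabut RNAi (median 1.51) and 2.09 to 2.79 in controls (median 2.55). The 2 ranges overlapped at 50 percent sucrose, where 1 library labelled cabut RNAi had 2.14 and the control 2.09.

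**Figure D2:**
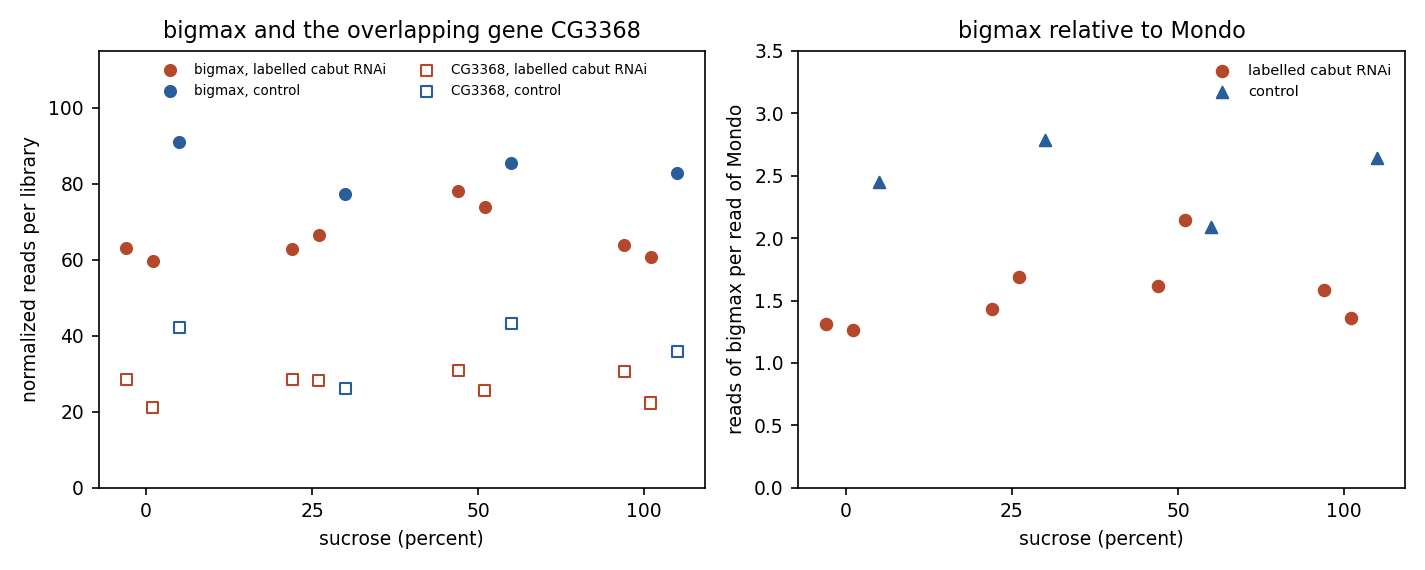
Left: normalized reads per library of bigmax (filled circles) and of the overlapping gene CG3368 (open squares) against sucrose in percent, in red for libraries labelled cabut RNAi and blue for controls. Right: reads of bigmax per read of Mondo in the same libraries. The controls hold 77.2 to 90.9 normalized reads of bigmax and 2.09 to 2.79 reads of bigmax per read of Mondo, with the overlap between labels at 50 percent sucrose in the right panel.

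With sucrose bigmax showed no called change. The log2 change was 0.04 ± 0.12 (limma adjusted p = 0.957; 95 percent interval -0.21 to 0.29). Within the libraries labelled cabut RNAi it was 0.13 ± 0.13 (limma adjusted p = 0.794), with the highest pair at 50 percent, and within controls -0.15 ± 0.18 (0.758). Neither Mondo nor bigmax thus passed in the sucrose comparison, and the interval of bigmax was narrower than that of Mondo.

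sug (transcript CG3850-RA, chromosome 2R, 8816368 to 8818151 in build dm3) rose with sucrose. In the libraries labelled cabut RNAi it held 48.9 and 40.7 normalized reads at 0 percent sucrose, 83.9 and 85.4 at 25 percent, 177 and 128 at 50 percent, and 143 and 132 at 100 percent. All 6 libraries with sucrose lay above both without it. The means were 1.89, 3.40 and 3.07 times that at 0 percent. In ascending order the levels ran 0, 25, 100 and 50 percent. The first 3 of these did not overlap, while the pairs at 100 and 50 percent did. The log2 change over the 3 concentrations was 1.41 ± 0.14 (n = 6 and 2; limma adjusted p = 2.16e-04), a 2.66-fold rise, in a comparison that called 1.97 percent of genes (0.595 percent higher and 1.37 percent lower). No other regulator was called in it. The call was made in all 20 alternatives, with values of 1.28 to 1.54 and limma, edgeR or DESeq2 adjusted p-values of 8.63e-09 to 0.0406.

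In controls sug held 82.0 normalized reads at 0 percent, 83.1 at 25 percent, 103 at 50 percent and 91.8 at 100 percent. Each control with sucrose was above the one without it, by 1.01 to 1.25 times. The log2 change was 0.17 ± 0.20 (limma adjusted p = 0.771; 95 percent interval -0.28 to 0.61), in a comparison that called 1.16 percent of genes (0.427 percent higher, 0.733 percent lower) and none of the 5, and it was 0.17 (limma adjusted p = 0.798) without the 100 percent control library. The difference between the 2 responses was 1.25 ± 0.25 on the log2 scale and did not pass (limma adjusted p = 0.0818). That test called 0.229 percent of genes (0.153 percent higher, 0.0763 percent lower), and sug ranked 26 of 6552 by p. It passed in 3 of 23 alternatives, with adjusted p-values of 0.0118 in robust limma, 0.0448 when the second of the libraries labelled cabut RNAi at 50 percent was left out and 0.0400 with the replicate block. Over all alternatives the adjusted p ran from 0.0118 to 1 and the value from 1.12 to 1.42, and without the 100 percent control library it was 1.15 (limma adjusted p = 0.218). The difference rests on the single control at 0 percent, with 64 reads of sug. Its interval of 63.1 to 105 normalized reads narrowly overlapped that of the first library labelled cabut RNAi (36.8 to 63.6) and lay above that of the second (32.2 to 50.8).

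Between labels sug thus lay on both sides. At 0 percent sucrose the mean labelled cabut RNAi was 0.547 times the control. It was 1.02 times at 25 percent and at least 1.48 times at 50 and 100 percent, with both libraries above the control at each of these 3. The label change averaged over concentrations was 0.07 ± 0.17 (limma adjusted p = 0.841). It turned below 0 in some fits that left out a library, to -0.10 without the 100 percent control library, and was 0.38 (limma adjusted p = 0.0835) without the control at 0 percent. Over all libraries, sug had a log2 change with sucrose of 1.0 ± 0.19 (limma adjusted p = 0.00385). This value is weighted towards the cabut RNAi label by its 2 libraries per concentration, and the responses within labels were 1.41 and, in controls, 0.17. In this comparison 2.15 percent of genes were called (0.672 percent higher and 1.48 percent lower) and 2 of the 5 regulators, sug and daw. Without the control library at 100 percent the sug call held (1.07, limma adjusted p = 0.00493). Leaving out either library labelled cabut RNAi at 0 percent ended that call (limma adjusted p = 0.0527 and 0.0732), as did limma without the trend (0.0860).

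The summed fat body and glia markers also differed with sucrose. The summed level of the 6 markers was 26282 and 27826 normalized reads for the libraries labelled cabut RNAi at 0 percent and 35396 to 59689 in those with sucrose. In controls it was 75889 at 0 percent and 53703 to 74429 with sucrose. Most of this fat body sum came from Yp1, Yp2 and Yp3, which averaged 18647, 13346 and 15513 normalized reads over the libraries. The averages were 2302 for apolpp, 215 for Lsp2 and 142 for fit. Within the libraries labelled cabut RNAi 3 of the 6 rose with sucrose, beside 0.595 percent of all genes. They were fit (log2 change 3.0 ± 0.23), a female-enriched fat body gene, and the yolk protein genes Yp2 (1.03 ± 0.20) and Yp3 (0.78 ± 0.16). Within controls none of the 6 passed in limma, beside 1.16 percent of all genes called. The fat body lipoprotein gene apolpp had log2 changes of 0.16 ± 0.10 under the cabut RNAi label and -0.03 ± 0.13 in controls. Those of Lsp2 were -0.09 ± 0.48 and 0.54 ± 0.68. The summed level of the 4 glia markers was 1778 and 1794 normalized reads at 0 percent and 1957 to 2183 with sucrose under the cabut RNAi label, and 1711 against 1763 to 1822 in controls. The glia sum was thus higher with sucrose without overlap under the cabut RNAi label, while the control side rests on a single library at 0 percent. No single glia marker passed in either label. Gs2, the largest of the 4, had log2 changes of 0.24 ± 0.09 under the cabut RNAi label and -0.02 ± 0.13 in controls. Those of repo were -0.14 ± 0.18 and 0.08 ± 0.26. Eaat1 and nrv2 had values above 0 in both labels. The part of these marker levels, or of fat body and glia content, in the sug and daw values was not tested.

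daw (transcript CG16987-RA, chromosome 2L, 2808321 to 2812147 in build dm3; 2 transcript rows with the same values) rose with sucrose over both labels. The libraries labelled cabut RNAi held 36.4 and 35.1 normalized reads at 0 percent, 58.4 and 41.3 at 25 percent, 70.8 and 50.3 at 50 percent, and 65.7 and 60.7 at 100 percent. The controls held 28.2, 43.6, 44.6 and 47.0. All 9 libraries with sucrose, at 41.3 to 70.8, lay above all 3 without it, at 28.2 to 36.4. In the libraries labelled cabut RNAi the means ascended with concentration, to 1.77 times the level at 0 percent. The single controls ascended to 1.67 times. Their counting intervals at 25, 50 and 100 percent overlapped (32.6 to 57.2, 31.2 to 61.7 and 29.1 to 71.8), so these controls could not be put in order. Neighbouring concentrations above 0 percent overlapped in the libraries labelled cabut RNAi. The log2 change over both labels was 0.66 ± 0.15 (limma adjusted p = 0.0185), a 1.58-fold rise, and 0.67 (0.0305) without the 100 percent control library. The call held in 19 of 23 alternatives (values 0.60 to 0.71, limma, edgeR or DESeq2 adjusted p-values of 0.00739 to 0.0934). It was lost without any 1 of the 3 libraries at 0 percent sucrose (limma adjusted p = 0.0871, 0.0934 and 0.0921) and without the trend (0.0720).

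The responses of daw in the 2 labels had close estimates, 0.66 ± 0.18 in the libraries labelled cabut RNAi (limma adjusted p = 0.127) and 0.66 ± 0.26 in controls (0.284), so that neither passed alone. Their difference was 0.00 ± 0.32 with a 95 percent interval of -0.70 to 0.71, which does not show that the responses were alike. Between labels daw had a log2 change of 0.33 ± 0.14 (limma adjusted p = 0.121; 0.30 and 0.270 without the 100 percent control library). It passed in none of 24 alternatives. The control was below both libraries of the other label at 3 concentrations and between them at 25 percent.

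**Figure D3:**
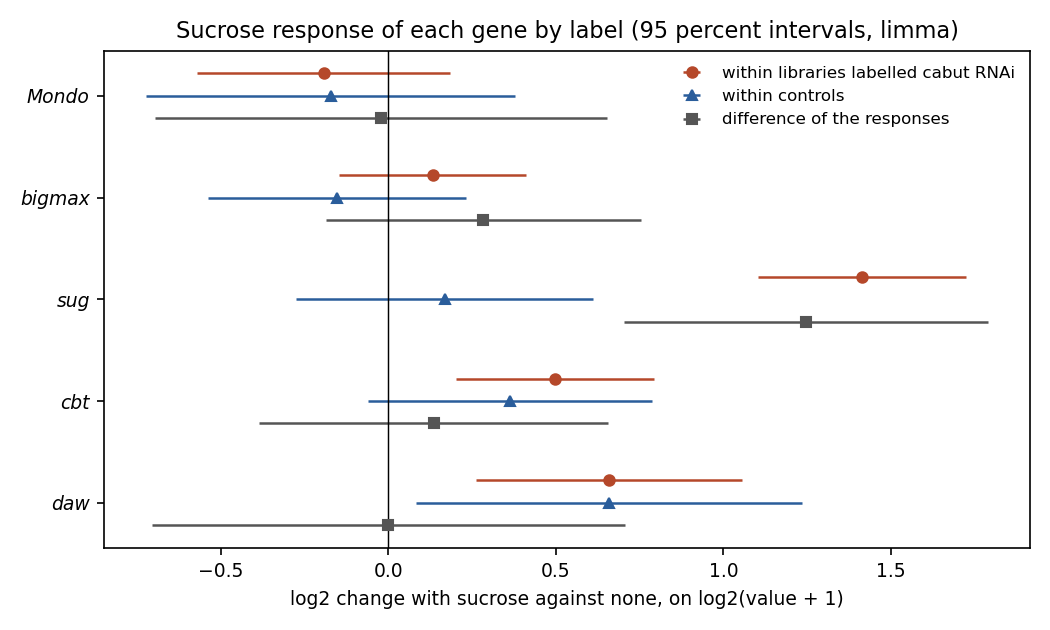
Change with sucrose against none on the log2(value + 1) scale (horizontal axis) for each gene, within the 8 libraries labelled cabut RNAi (circles), within the 4 controls (triangles) and as the difference of the 2 (squares); bars are limma 95 percent intervals without adjustment over genes. For sug the values are 1.41, 0.17 and 1.25, and for daw 0.66, 0.66 and 0.00.

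Across 25, 50 and 100 percent, no regulator passed a test for a trend with concentration. The slope per doubling of sucrose over the 9 libraries was 0.25 ± 0.10 for sug, 0.14 ± 0.09 for daw, 0.06 ± 0.09 for cbt, 0.04 ± 0.10 for Mondo and -0.0016 ± 0.08 for bigmax. The limma adjusted p was 1.0 for all 5 when rounded. In this test 0 percent of genes were called in limma, 272 had an unadjusted p under 0.05, and edgeR and DESeq2 called 6 and 1. Of the 5, sug alone had an unadjusted limma p under 0.05 (0.0167, n = 9 libraries). Leaving out the 100 percent control library gave slopes of 0.34 for sug, 0.16 for daw, 0.18 for cbt, 0.07 for Mondo and -0.01 for bigmax. Without it the change with sucrose was -0.17 for Mondo and 0.03 for bigmax, and the response within controls was 0.51 for cbt, 0.63 for daw, -0.14 for Mondo and -0.16 for bigmax. The difference of responses was then -0.14 for cbt, -0.04 for daw, -0.07 for Mondo and 0.35 for bigmax, none of them called by limma.

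**Figure D4:**
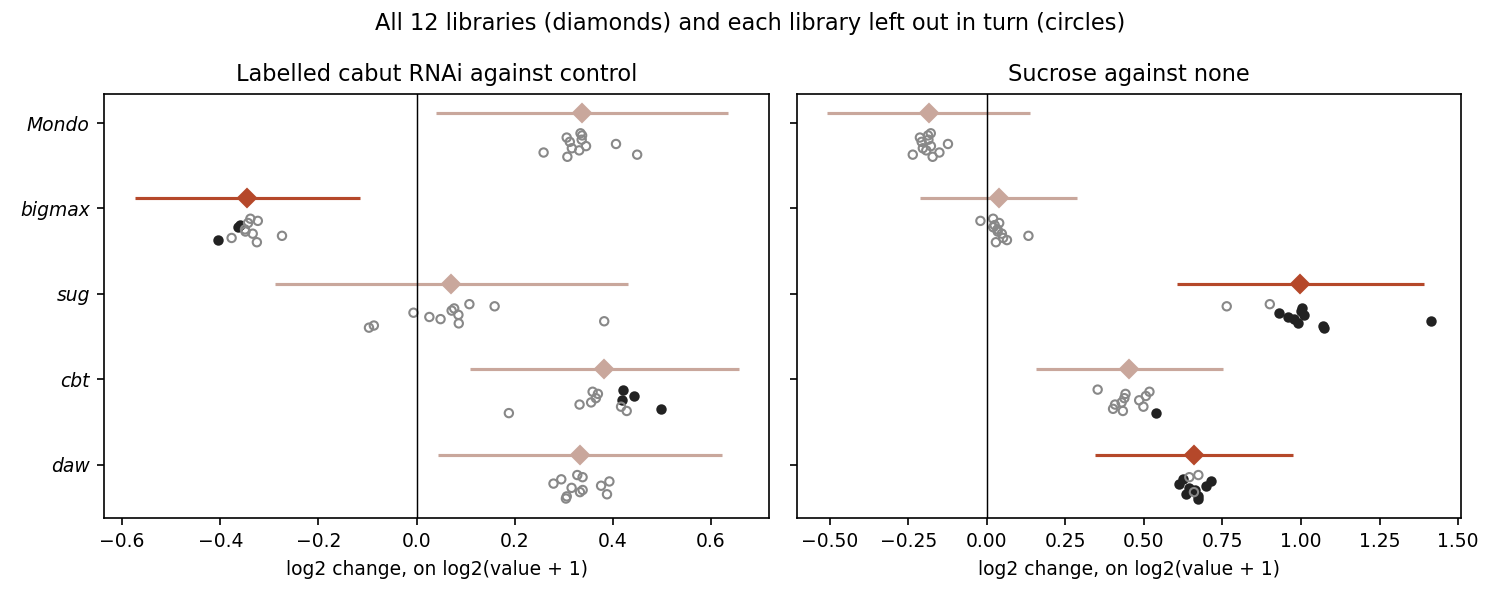
Log2 change between labels (left) and with sucrose (right) for each gene, as diamonds with limma 95 percent intervals over all 12 libraries and as circles for each fit without 1 library; dark diamonds and filled circles have an adjusted p under 0.05. The bigmax call between labels is kept in 3 of 12 such fits, and the sucrose calls of sug and daw in 10 and 9.

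Among themselves, the levels of sug, daw and cbt went together across the libraries. Over 12 libraries Pearson's r of the log2 levels was 0.84 for cbt and daw, 0.77 for sug and daw and 0.59 for sug and cbt. Within the 8 libraries labelled cabut RNAi these were 0.88, 0.90 and 0.75. For Mondo and bigmax r was -0.53 over 12 and -0.30 over 8 libraries. These are descriptions, since the libraries share sucrose levels, labels and scaling. Of 2329 or more genes with a mean of at least 50 normalized reads, the closest in pattern to sug were CG4199 (r = 0.87), the juvenile hormone-binding protein family gene Jhbp3 (0.87) and fit (0.87), over 12 libraries. For daw they were CG4199 (0.90), the inositol phosphate synthase gene Inos (0.89) and the fatty acid elongase gene Elovl7 (0.89). For cbt they were Serinc (0.92), CG10543 (0.89) and CG6067 (0.88). For bigmax they were the translation factor gene eIF4A (0.93), the ribosomal protein gene RpL11 (0.92) and CG15012 (0.92). For Mondo they were nkt (0.84), the tyrosine aminotransferase gene Tat (0.82) and hgo (0.82), which encodes a later enzyme of tyrosine breakdown. RpL11 held 2222 to 2806 normalized reads in the controls and 1214 to 1665 under the cabut RNAi label, without the overlap that bigmax had, and fit went from 15.5 and 24.0 to 103 to 265 with sucrose in the libraries labelled cabut RNAi.

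Around Mondo and bigmax, 7 of 8 listed partners were measured above the minimum. Between labels 1 of the 7 was higher and 1 lower, beside 6.78 and 8.71 percent of all genes. With sucrose none of the 7 passed in limma, beside 2.15 percent of all genes called. Myc, a relative of Mondo that dimerises with Max, was lower under the cabut RNAi label (log2 change -0.70 ± 0.15), at 22.7 to 35.9 normalized reads against 43.5 to 64.9 in controls, with no overlap. 14-3-3zeta, of a family that holds the mammalian Mondo relatives in the cytoplasm, was higher (0.38 ± 0.09). Max itself had a change of 0.00 ± 0.14. The median of the 7 was 0.00 between labels and 0.05 with sucrose, against 0.01 for all genes in both comparisons.

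The list of sugar response genes known for the Mondo-bigmax pair or its downstream factors had 11 of 12 members measured, and its medians were 0.14 between labels and -0.12 with sucrose. With sucrose 1 of the 11 rose and 2 fell, beside 0.672 percent higher and 1.48 percent lower of all genes. The rise was in FASN1, the fatty acid synthase gene (0.60 ± 0.14), from 388 normalized reads in the control at 0 percent to 519 to 733 with sucrose, and from 383 and 405 to 392 to 788 in the libraries labelled cabut RNAi, which overlapped there. The falls were in the phosphoenolpyruvate carboxykinase genes Pepck1 (-1.13 ± 0.22) and Pepck2 (-2.40 ± 0.43), of which Pepck2 held 0 to 1.68 normalized reads in controls with sucrose, so that its fitted change depends on the pseudocount. Between labels 5 of the 11 were higher and 1 lower, beside 6.78 and 8.71 percent of all genes. The higher genes with the smallest p were the glycerol-3-phosphate dehydrogenase gene Gpdh1 (1.65 ± 0.14), both Pepck genes (2.53 ± 0.40 for Pepck2 and 1.08 ± 0.20 for Pepck1) and Zw, the first enzyme of the pentose phosphate pathway (0.56 ± 0.12). For Pepck1 this held only with sucrose, at 797 to 1290 normalized reads under the cabut RNAi label against 357 to 383 in controls. At 0 percent its libraries labelled cabut RNAi, with 1511 and 1608, lay below the control, with 1853. ACC, which makes the building block for fatty acids, was the lower one (-0.34 ± 0.10).

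Around daw, 12 of 15 genes of activin and BMP signalling were measured above the minimum. With sucrose none of the 12 passed in limma (median 0.12), beside 2.15 percent of all genes called. The smallest p was that of Actbeta, another activin-like ligand gene (0.31 ± 0.14, limma adjusted p = 0.417). Between labels 1 of the 12 was higher and 3 lower (median -0.04), beside 6.78 and 8.71 percent of all genes. Actbeta was higher (0.53 ± 0.13), at 55.1 to 81.6 normalized reads against 33.3 to 60.4 in controls, with overlap. The BMP ligand genes dpp (-0.59 ± 0.18) and gbb (-0.42 ± 0.14) and Dad, an inhibitory Smad gene (-0.53 ± 0.17), were lower. The activin receptor gene babo averaged 7.62 normalized reads and was not tested, and Smox, the Smad that relays activin signals, had changes of -0.15 ± 0.15 between labels and -0.01 ± 0.17 with sucrose.

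In the starvation and FOXO list, 7 of 8 members were measured above the minimum. With sucrose 1 of the 7 fell, the triglyceride lipase gene bmm (-1.34 ± 0.18), and none rose (median 0.01), beside 1.48 percent of all genes lower and 0.672 percent higher. Between labels InR, the insulin receptor gene, was lower (-0.62 ± 0.18) and no member was higher (median -0.22), beside 8.71 and 6.78 percent of all genes. Of the 10 listed Kruppel-like, Sp and Gli-family genes and corepressors, 3 were above the minimum. They were the Gli-family gene ci and the corepressor genes Sin3A and HDAC1. Thus ci was the only family relative of sug tested, and no Kruppel-like or Sp gene of the list was tested beside cbt. None of the 3 passed between labels or with sucrose in limma, beside 15.5 and 2.15 percent of all genes called. The smallest p was that of HDAC1 between labels (0.20 ± 0.33) and of Sin3A with sucrose (-0.22 ± 0.16).

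**Figure D5:**
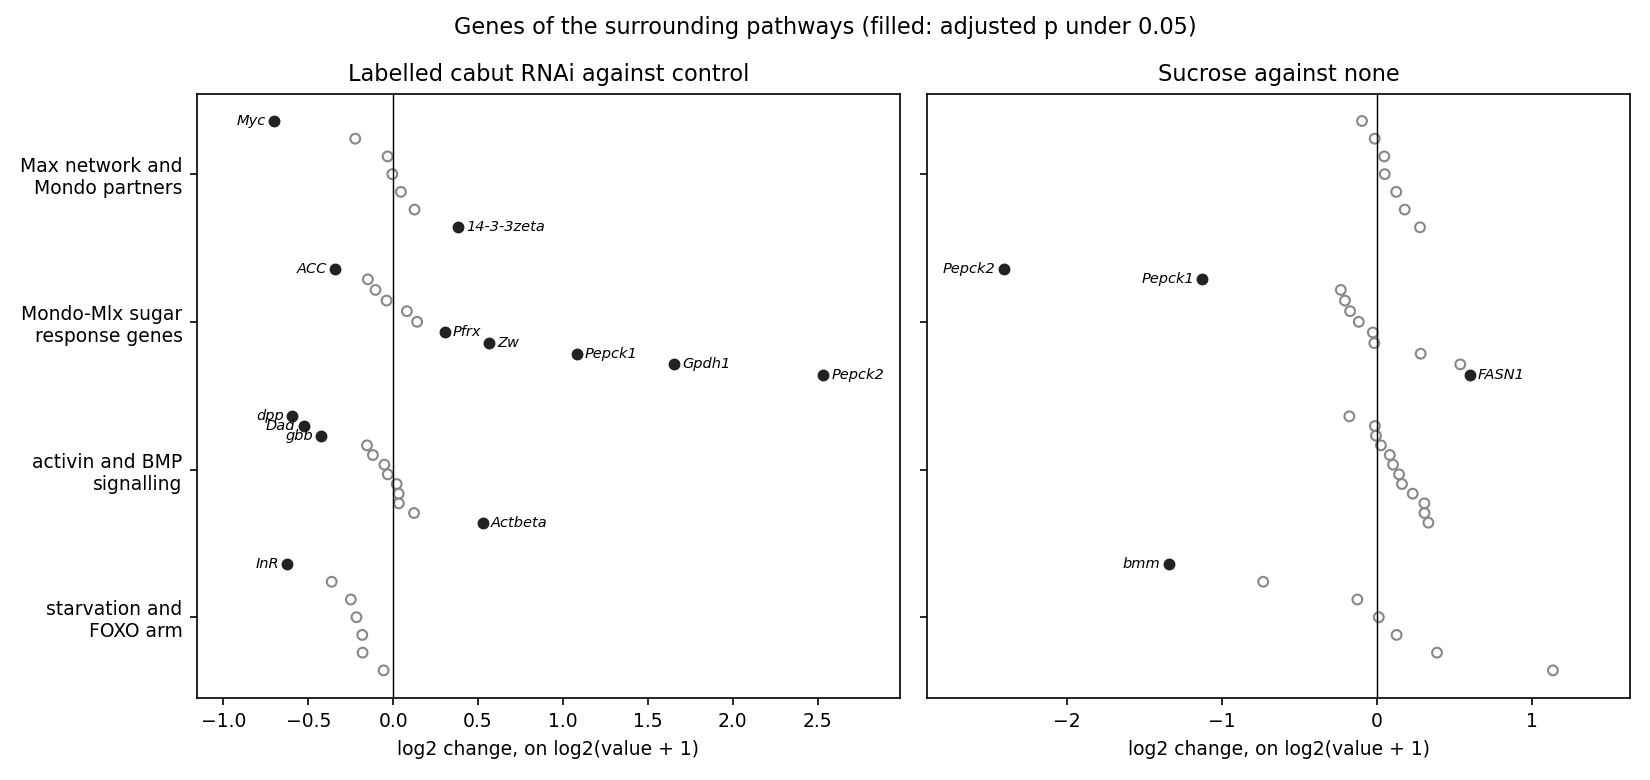
Log2 change of each measured gene in 4 lists around the regulators (rows), between labels (left) and with sucrose (right), on the log2(value + 1) scale; filled points have a limma adjusted p under 0.05 and are named. With sucrose the filled points are Pepck2 at -2.40, bmm at -1.34, Pepck1 at -1.13 and FASN1 at 0.60.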

How the data were processed

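Poly(A) selection followed fragmentation, per the labels' protocols. The submitters' processing notes list Bowtie, TopHat and build dm3. For counter, strand use and normalization nothing is given in the sources used here. The authors deposited 1 normalized signal per transcript row (21081 rows) and library. All values (100 percent, tolerance 0.01) were whole multiples of 1 step per library, which gave the reads. Of 14009 CG or CR numbers 13536 matched a RefSeq symbol, and 2 rows without a number were left out. Starts were shifted to count from 1, and coordinates come from the deposited table.

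Genes with a mean of at least 10 were tested on log2(value + 1) with limma 3.58.1 (trend; R 4.3.3). The label and sucrose changes came from 1 fit of 12 libraries that held a term for each concentration. Each library counted the same in that fit. Its sucrose change therefore rests more on the cabut RNAi label, with 2 libraries per concentration, than on controls, with 1. The response labelled cabut RNAi used 8 libraries, the control response and the difference of responses 8 group means, and the trend 9 libraries. With 1 control per concentration, controls are taken to vary like the libraries labelled cabut RNAi. Chi-square over degrees of freedom was 2.73 to 5.75 between replicates, above counting noise, so no pair was 1 library deposited again. Whether replicates share an RNA pool is not known.

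The members and lists were chosen with earlier results of these data known. Named are the 5 genes, the 3 closest in pattern to each, and from each list per comparison at most 4 called genes, or that with the smallest p. CG3368, ACC, Max, Smox, babo, elav, apolpp, ci, and the glia, germline and midgut markers were named after their values were seen. Alternatives were other pseudocounts, filters and scalings, limma without trend or robust, summed transcript rows, a replicate block, DESeq2 1.42.0 and edgeR 4.0.16 run on recovered reads, other terms for concentration, and each library left out. The fits were tested on simulated data. Of 6552 genes, 67 were changed 1.5-fold, 67 2-fold and 66 4-fold, and both labels were given the same spread. The shares below depend on these settings and need not hold for the real calls. Of genes changed 2-fold, 88.1 percent were called between labels, 74.6 percent with sucrose and 74.6 percent within the cabut RNAi label. Within controls it was 38.8 percent and for the difference of responses 11.9 percent. Of all calls, unchanged genes made up 9.47, 2.13, 3.88, 24.4 and 12.9 percent in the same order. For the trend, with a 2-fold change per doubling, the values were 100 and 4.57 percent.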

Additional observations from a re-analysis of the deposited data

Results flagged for a closer look

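The sucrose response differed between labels for 2 of the 11 tested sugar response genes and 1 of the 7 tested starvation genes (limma adjusted p under 0.05), beside 15 of 6552 genes (0.229 percent) in all, while none of the 5 regulators passed this test. For Pepck1 the difference on the log2 scale was 1.77 (limma adjusted p = 0.00222), with responses of -0.54 ± 0.11 under the cabut RNAi label and -2.31 ± 0.16 in controls. For Pepck2 it was 2.68 (limma adjusted p = 0.0279), with 6.98 to 15.8 normalized reads with sucrose under the cabut RNAi label and 0 to 1.68 in the controls with sucrose, so that its size depends on the pseudocount. For Thor, the 4E-BP gene, it was 1.35 (limma adjusted p = 0.0107), with a rise of 0.58 ± 0.11 under the cabut RNAi label and a change of -0.78 ± 0.15 in controls. All 3 rest on the single control library at 0 percent sucrose. No group held 4 or more libraries, so single libraries far from the rest of their group were not looked for.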

How the results depend on the processing

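Genes called between labels stayed within 1.5 times of 1015 in every alternative. Beside 141 with sucrose there were 59 without the trend and 87 to 174 with a library left out. Beside 129 in the libraries labelled cabut RNAi there were 81 without a filter, 34 without the trend and 40 to 142. Beside 76 in controls (28 higher, 48 lower) there were 422 without a filter, 50 at a minimum mean of 50, 31 without the trend, 151 with robust limma, 49 in edgeR, 33 in DESeq2 and 42 to 108. Quantile normalization gave 16 higher and 47 lower there. Beside 15 for the difference of responses (10 higher, 5 lower) there were 315 without a filter, 9 without the trend, 4 in DESeq2, 5 to 22 with a library left out, and 12 higher and 2 lower after quantile normalization. Beside 0 for the trend with concentration there were 6 in edgeR, 1 in DESeq2 and 0 to 2. The causes were not tested.

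Values that changed sign lay near 0. With a library left out, sug between labels ran from -0.10 to 0.38 and bigmax with sucrose from -0.020 to 0.13. The difference of responses ran from -0.081 to 0.083 for daw, -0.14 to 0.15 for Mondo and -0.14 to 0.33 for cbt. It was -0.0016 for daw with a pseudocount of 0.5, and for Mondo 0.0010 after quantile normalization and 0.00042 in edgeR. The slopes ran from -0.011 to 0.18 for cbt, -0.029 to 0.035 for bigmax and -0.030 to 0.073 for Mondo. Within the libraries labelled cabut RNAi, robust limma called cbt (adjusted p = 0.0289) and daw (0.0374). Without the control at 0 percent the control response and the difference could not be fitted. Mondo and daw were not tested at a minimum mean of 50.

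Replicate numbers did not pair the libraries labelled cabut RNAi: correlations of same-numbered deviations ran from -0.11 to 0.14. The replicate block gave 1005 calls between labels, 151 with sucrose and 160 within the libraries labelled cabut RNAi, and of the 5 regulators it changed 1 call, the difference of responses for sug (1.25, limma adjusted p = 0.0400). Depth limits the control at 100 percent, with 14 reads of Mondo and 21 of daw.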

Other observations

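The pairs of libraries labelled cabut RNAi were compared for counting noise in 20 exact binomial tests, 1 per regulator and concentration. In 4 the unadjusted p was under 0.05, and 2 passed after Benjamini-Hochberg adjustment over the 20: cbt at 25 percent, with 325 and 134 reads (exact p = 4.88e-04, adjusted p = 0.00976), and sug at 50 percent, with 172 and 130 reads (exact p = 0.00222, adjusted p = 0.0222). These tests compare libraries, not conditions. At 50 percent sucrose the first library held more normalized reads than the second for all 5 regulators.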
